A study of Bos taurus
Mus musculus and Bos taurus and Mus musculus with 5 samples.

Results

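Transcripts of 5 inhibitors of cyclin-dependent kinases (CDKs) and 5 cyclins of the G1 phase were followed in heterokaryons, cells in which the nuclei of a bovine fibroblast and a mouse stem cell lie side by side in a shared cytoplasm. The inhibitors were CDKN1A, CDKN1B, CDKN1C, CDKN2C and CDKN2D, and the cyclins were CCND1, CCND2, CCND3, CCNE1 and CCNE2. They were found in the table of bovine transcripts and in the table of mouse transcripts by gene name, ignoring case, and the reads of transcripts with the same name were summed. All 10 genes were found in each table, among 13921 bovine and 24574 mouse genes. Bovine genes are written in capitals and mouse genes with a leading capital.

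The bovine parent was a culture of fetal fibroblasts (bFF) from 1 fetus at about day 60 of gestation, grown with serum at 38.5 °C. The mouse parent was a C57BL embryonic stem cell line (mESC), kept at 37 °C over a feeder layer of irradiated mouse fibroblasts in medium with leukaemia inhibitory factor. That medium also held a MEK inhibitor, PD0325901 at 1 µM, and a GSK3 inhibitor, CHIR99021 at 3 µM. After 4 h in shared culture the cells were joined by a 2 min exposure to polyethylene glycol, and the products stayed at 37 °C in stem cell medium from which both inhibitors had been left out. The 5 groups were heterokaryons at 24, 48 and 72 h and the unfused parents bFF and mESC, each with a single library made from 200 cells. Effects of fusion cannot be told apart from those of medium, temperature and company on the bovine side, or from those of inhibitor withdrawal and company on the mouse side.

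A cell leaves G1 when CDKs phosphorylate the retinoblastoma protein, which frees E2F factors to switch on genes of DNA replication. D cyclins activate CDK4 and CDK6 in response to growth signals, and E cyclins activate CDK2 at the entry into S phase. The INK4 inhibitors, here CDKN2C and CDKN2D, bind CDK4 and CDK6, whereas the Cip/Kip inhibitors CDKN1A, CDKN1B and CDKN1C act mainly on CDK2 complexes. Mouse embryonic stem cells are known for a short G1 phase and abundant cyclin E with CDK2 activity. Much of the control of these proteins lies in their turnover, which transcript counts do not show.

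Bovine reads numbered 982769 to 2634269 in bFF and the heterokaryons, and mouse reads 1731084 to 3446461 in mESC and the heterokaryons. Levels are given as RPM, the reads of a gene scaled to that species' total in the library. Ratios between libraries, and scaled levels written as CPM, use library sizes scaled by edgeR's TMM method, so a ratio need not equal that of the printed RPM. All 10 bovine fibroblast markers had reads in bFF (37618 RPM summed) and in each heterokaryon library (18488 to 20918 RPM), and all 11 mouse stem cell markers had reads in mESC (18023 RPM) and in the heterokaryons (13955 to 14501 RPM). Of the 10 fibroblast markers, 4 to 6 also had reads in the mouse table, at 22.3 RPM summed in mESC and 172, 82.6 and 61.5 RPM at 24, 48 and 72 h, with Col1a2, Col3a1, Fap and Lum at 0 in all 4 libraries. The bovine table held 6 of the 11 stem cell markers. They summed to 65.7 RPM in bFF and 172, 95.3 and 73.9 RPM in the heterokaryons, with SOX2 at 0 throughout. NANOG had reads in bFF and none in the heterokaryons, while POU5F1 and TFCP2L1 had none in bFF and some in the heterokaryons. KLF4 was at 53.9 RPM in bFF and 81.4, 39.0 and 26.6 RPM in the heterokaryons. It also had 32 bovine reads listed in mESC, a library with no bovine cells. At that rate 28.2% to 41.6% of its heterokaryon reads would be wrongly assigned mouse reads. Of the blood markers, HBA had no reads in bFF and was at 91.6, 66.8 and 48.6 RPM in the bovine table of the heterokaryons. Wrong assignment was not estimated for HBA or for the other stem cell markers. The 4 epithelial markers summed to 1865 RPM in bFF and 717, 631 and 365 RPM in bovine transcripts of the heterokaryons, and to 299 RPM in mESC and 565, 383 and 398 RPM in mouse transcripts. The part of these cells in the results below was not tested. A library is a pool, so fewer cells with a transcript and less of it per cell cannot be told apart.

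In bovine transcripts 1 inhibitor fell and 1 rose. CDKN1C fell from 309 RPM in fibroblasts to between 1.95 and 4.07 RPM in heterokaryons, and CDKN2D rose from 25.8 RPM to 58.0, 96.1 and 138 RPM at 24, 48 and 72 h. No other bovine member passed the test. All 5 bovine cyclins were above the fibroblast level at all 3 times, but only CCND1 and CCND2 beyond counting error at each. Counting intervals included 1 for CCNE1 at each time, for CCND3 at 24 and 48 h and for CCNE2 at 48 h. With library totals as the only scaling CCND3 and CCNE1 were just below the fibroblast level at 48 h. How many of all bovine genes lay above bFF at all 3 times was not counted. CDKN2C was below the fibroblast level beyond counting error at each time. In the mouse nucleus no member passed. Mouse Ccnd2 went from 0 reads in mESC to 47, 5 and 21 reads, and Ccnd3 was below its mESC level at all 3 times.

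The test set the 3 heterokaryon libraries against the single control of the species with edgeR's quasi-likelihood model, and adjusted p-values over all tested genes. Its spread comes from libraries of different times, since no group was replicated, and its p-values therefore do not describe replicate cultures. Of the 10 bovine members 1 was called higher and 1 lower, beside 4.37% of all 7376 tested bovine genes called higher and 4.77% called lower (9.14% in either direction). The median log2 fold change of the members was 0.45, against -0.03 over all tested bovine genes, and 4 members had an unadjusted p under 0.05, as did 1776 of all 7376 bovine genes. Of the 10 mouse members 7 reached 10 CPM in some library and were tested, and 0 were called in either direction, beside 0.575% of 8865 mouse genes called higher and 0.406% called lower (0.981% in either direction). DESeq2 also called 0 mouse members, though it gave no adjusted p for Ccnd2, and at an unadjusted p under 0.05 edgeR had 2 of the 7 members, and 1456 of all tested mouse genes. The median over these 7 was 0.43, against -0.09 over all tested mouse genes.

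**Figure D1:**
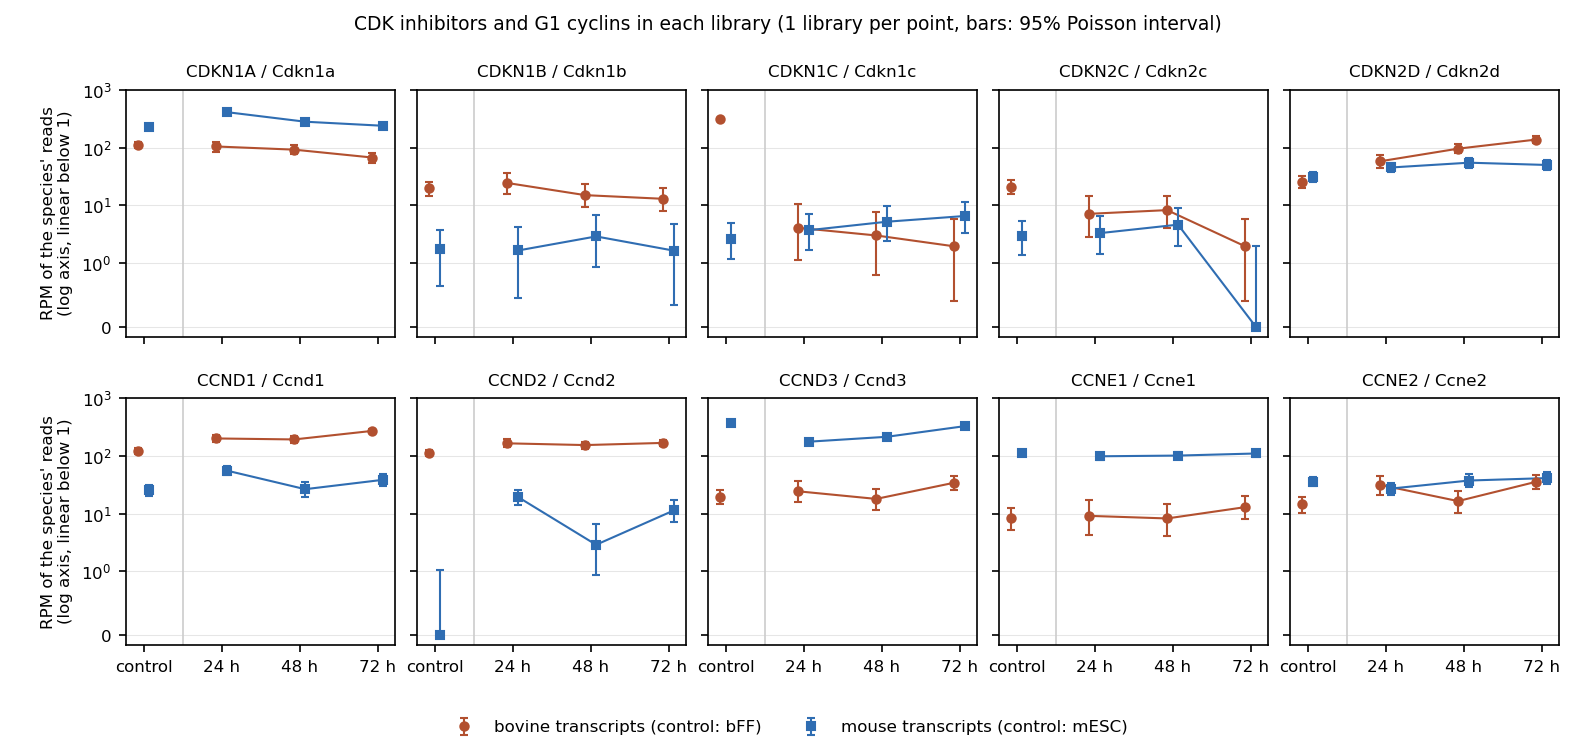
RPM of each gene in the control and in the 24, 48 and 72 h heterokaryons on a log axis that is linear below 1, with bovine transcripts as circles and mouse transcripts as squares, 1 library per point and 95% Poisson intervals as bars. Bovine CDKN1C drops from 309 to under 5 RPM, bovine CDKN2D climbs from 25.8 to 138 RPM, and mouse Ccnd2 starts at 0.

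Among the Cip/Kip inhibitors, CDKN1C (chromosome 29, plus strand, from 49368787 in bosTau8) encodes a CDK inhibitor whose gene is imprinted in mouse and which is known for holding cells of the embryo out of the cycle. It had 814 bovine reads in bFF and 4, 4 and 3 reads at 24, 48 and 72 h. All 3 heterokaryon libraries lay far below bFF. Scaled to library size the 72 h level was 0.00713 of the fibroblast level (95% interval 0.00147 to 0.0209, counting error only), and the log2 fold change over the 3 times was -6.60 ± 0.38 (SE; edgeR adjusted p = 1.2e-06). The bovine table listed 3 CDKN1C reads in mESC, a library with no bovine cells, and at that rate wrong assignment of mouse reads would give 52.8%, 37.7% and 53.3% of the reads left at 24, 48 and 72 h. In mouse transcripts Cdkn1c had 9 reads in mESC and 9, 9 and 12 reads in the heterokaryons, or 2.61, 3.71, 5.20 and 6.53 RPM, under the level tested. The ratio of 72 h to mESC, 2.42, had a counting interval that included 1 (0.934 to 6.49).

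CDKN1A, a CDK inhibitor known for its induction by DNA damage, had over 100 reads in every library. The bovine gene (chromosome 23, plus strand, from 10560499) had 289 reads in bFF and 103, 123 and 104 reads in the heterokaryons, which is 110 RPM and then 105, 92.3 and 67.5 RPM. Only the 72 h level lay below bFF beyond counting error, at 0.696 of it (0.551 to 0.874), and the fit gave -0.22 ± 0.32 (edgeR adjusted p = 0.722). Mouse Cdkn1a (GRCm38 17:29090976-29100727, plus strand) had 776 reads in mESC and 1001, 488 and 440 reads in the heterokaryons, or 225, 412, 282 and 240 RPM. The 24 h library was the highest, 1.77 times mESC (1.61 to 1.95), and the level at 72 h was 0.579 of that at 24 h (0.517 to 0.649). Over the 3 times the change was 0.43 ± 0.27 (edgeR adjusted p = 0.444).

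CDKN1B encodes the inhibitor that links mitogen withdrawal to arrest in G1 and is governed to a large part by protein turnover. Its bovine reads (chromosome 5, minus strand, from 97577139) were 52 in bFF and 24, 20 and 20 in the heterokaryons, or 19.7, 24.4, 15.0 and 13.0 RPM. The bFF level lay within the range of the heterokaryons, and the log2 fold change was -0.11 ± 0.53 (edgeR adjusted p = 0.934). With 7 bovine CDKN1B reads listed in mESC, wrong assignment would account for 17.6% to 20.5% of its heterokaryon reads. Mouse Cdkn1b was near the limit of detection in every library, with 6 reads in mESC and 4, 5 and 3 in the heterokaryons.

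The bovine INK4 inhibitors lay on opposite sides of the fibroblast level. CDKN2D (chromosome 7, minus strand, from 16298107) had 68 reads in bFF and 57, 128 and 213 reads at 24, 48 and 72 h. Each heterokaryon library was above bFF, and each later library above the one before it. The levels were 2.24 times bFF at 24 h (1.55 to 3.24), 4.09 times at 48 h (3.02 to 5.57) and 6.06 times at 72 h (4.59 to 8.09), and the 72 h level was 2.70 times that at 24 h (2.01 to 3.69, counting error only, with no test). The log2 fold change was 2.05 ± 0.51 (edgeR adjusted p = 0.0268), and no CDKN2D read was assigned to the bovine table in mESC. Mouse Cdkn2d (9:21288410-21291407, minus strand) had 107 reads in mESC and 110, 95 and 92 in the heterokaryons, or 31.0, 45.3, 54.9 and 50.1 RPM. All 3 times lay above mESC, by 1.41 (1.07 to 1.86), 1.73 (1.30 to 2.30) and 1.56 times (1.17 to 2.08), and the fit gave 0.64 ± 0.33 (edgeR adjusted p = 0.331).

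CDKN2C had 55 bovine reads in bFF (chromosome 3, minus strand, from 95924171) and 7, 11 and 3 reads in the heterokaryons, or 20.9, 7.12, 8.26 and 1.95 RPM. All 3 times were below bFF beyond counting error, and the 72 h level was 0.106 of it (0.0211 to 0.325). The log2 fold change of -1.78 ± 0.75 did not pass (edgeR adjusted p = 0.166), and without the 24 h library it was -1.92. Mouse Cdkn2c had 10 reads in mESC, 8 at 24 h, 8 at 48 h and 0 at 72 h, where a count of 0 allows up to 2.01 RPM at the upper 95% limit. The mESC level was 2.90 RPM (10 reads), and 2 Cdkn2c reads were listed in bFF, so no mouse difference was detectable at this depth between mESC and the 24 or 48 h library. The ratio of 72 h to mESC had an upper 95% limit of 0.808, counting error only. Cdkn2c sums 2 transcripts, and a listed 0 can hide a single read in each.

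The D cyclins are the growth-factor-responsive partners of CDK4 and CDK6. Bovine CCND1 (chromosome 29, plus strand, from 47544380) had 325 reads in bFF and 198, 258 and 420 reads in the heterokaryons, or 123, 201, 194 and 272 RPM. All 3 times were above bFF, by 1.63 (1.36 to 1.95), 1.72 (1.46 to 2.04) and 2.50 times (2.16 to 2.90). The fit gave 0.97 ± 0.34 (edgeR adjusted p = 0.105), and without the 24 h library the log2 fold change was 1.07. Mouse Ccnd1 (7:144929931-144939925, minus strand) had 87 reads in mESC and 135, 46 and 71 in the heterokaryons, or 25.2, 55.6, 26.6 and 38.7 RPM. Its 24 h level was 2.13 times mESC (1.62 to 2.83) and its 48 h level 0.482 of that at 24 h (0.337 to 0.679), with 0.64 ± 0.40 over the 3 times (edgeR adjusted p = 0.439).

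CCND2 had reads in the fibroblasts and none in the stem cells. The bovine gene (chromosome 5, minus strand, from 106253905) had 297 reads in bFF and 163, 206 and 260 reads in the heterokaryons, or 113, 166, 155 and 169 RPM, with each time above bFF by 1.47 (1.21 to 1.78), 1.51 (1.26 to 1.81) and 1.69 times (1.43 to 2.01). The log2 fold change was 0.64 ± 0.31 (edgeR adjusted p = 0.226). Mouse Ccnd2 (6:127125162-127152193, minus strand) was listed at 0 reads in mESC, which allows up to 1.07 RPM at the upper 95% limit, and had 47, 5 and 21 reads in the heterokaryons, or 19.4, 2.89 and 11.4 RPM. Against a floor of 3 reads in mESC it was 21.5-fold higher at 24 h, 3.24-fold higher at 48 h and 12.7-fold higher at 72 h. Counting error in both libraries gave lower 95% limits of 16.8, 1.78 and 9.43 times. The 48 h level was 0.151 of that at 24 h (0.0467 to 0.377), and the 72 h level 3.91 times that at 48 h (1.43 to 13.3). The change did not pass the test (edgeR adjusted p = 0.0698, 0.00631 to 0.115 over 9 alternatives, of which 4 passed and 1, DESeq2, gave no adjusted p). The mouse table listed 0 Ccnd2 reads in bFF, so wrong assignment of fibroblast reads was not seen for it. Exons of Ccnd2 overlap genes on the other strand, of which 9330179D12Rik was listed at 0 in every library. The summed mouse fibroblast markers went up with Ccnd2 from mESC to 24 h and down to 48 h, but from 48 to 72 h they went from 82.6 to 61.5 RPM while Ccnd2 went from 2.89 to 11.4 RPM. Their part in this result was not tested.

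Per transcript length, Ccnd3 was the most abundant D cyclin of the stem cells. The gene (17:47505051-47599691, plus strand) had 1267 reads in mESC and 430, 373 and 606 in the heterokaryons, or 368, 177, 215 and 330 RPM. Relative to mESC, the 24 h level was 0.467 (0.417 to 0.521), the 48 h level 0.573 (0.509 to 0.644) and the 72 h level 0.866 (0.785 to 0.955), and from 24 to 72 h it was 1.86 times higher (1.64 to 2.11). The fit over the 3 times gave -0.66 ± 0.27 (edgeR adjusted p = 0.239), and without the 72 h library -0.95. Its exons overlap Bysl on the other strand, which had 350 reads in mESC and 193, 117 and 147 in the heterokaryons, and counting by strand is not stated. Bovine CCND3 (chromosome 23, minus strand, from 15707551) had 52 reads in bFF and 24, 24 and 53 in the heterokaryons, or 19.7, 24.4, 18.0 and 34.4 RPM, of which only the 72 h level was above bFF beyond counting error (1.97 times, 1.32 to 2.95). Its log2 fold change was 0.50 ± 0.51 (edgeR adjusted p = 0.604).

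The E cyclins switch on CDK2 at the start of S phase. Mouse Ccne1 (7:38097984-38107534, minus strand) had 382 reads in mESC and 240, 176 and 203 in the heterokaryons, or 111, 98.9, 102 and 111 RPM, and its ratios to mESC, 0.864 to 0.963, each had a counting interval that included 1. The log2 fold change was -0.14 ± 0.24 (edgeR adjusted p = 0.803). Bovine CCNE1 (chromosome 18, plus strand, from 40565286) had 22 reads in bFF and 9, 11 and 20 in the heterokaryons, or 8.35, 9.16, 8.26 and 13.0 RPM, with 0.40 ± 0.75 (edgeR adjusted p = 0.796). Bovine CCNE2 (chromosome 14, minus strand, from 71807750) had 38 reads in bFF and 31, 22 and 55 in the heterokaryons, or 14.4, 31.5, 16.5 and 35.7 RPM. It was above bFF beyond counting error at 24 h (2.18 times, 1.31 to 3.60) and 72 h (2.80 times, 1.82 to 4.35) but not at 48 h, with 1.06 ± 0.54 overall (edgeR adjusted p = 0.264). Mouse Ccne2 (4:11191351-11204779, plus strand) had 123 reads in mESC and 66, 65 and 76 in the heterokaryons, or 35.7, 27.2, 37.5 and 41.4 RPM, with -0.06 ± 0.34 (edgeR adjusted p = 0.940). The exons of Ccne2 overlap Ints8 on the other strand, which had 179, 129, 76 and 102 reads in the same order.

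**Figure D2:**
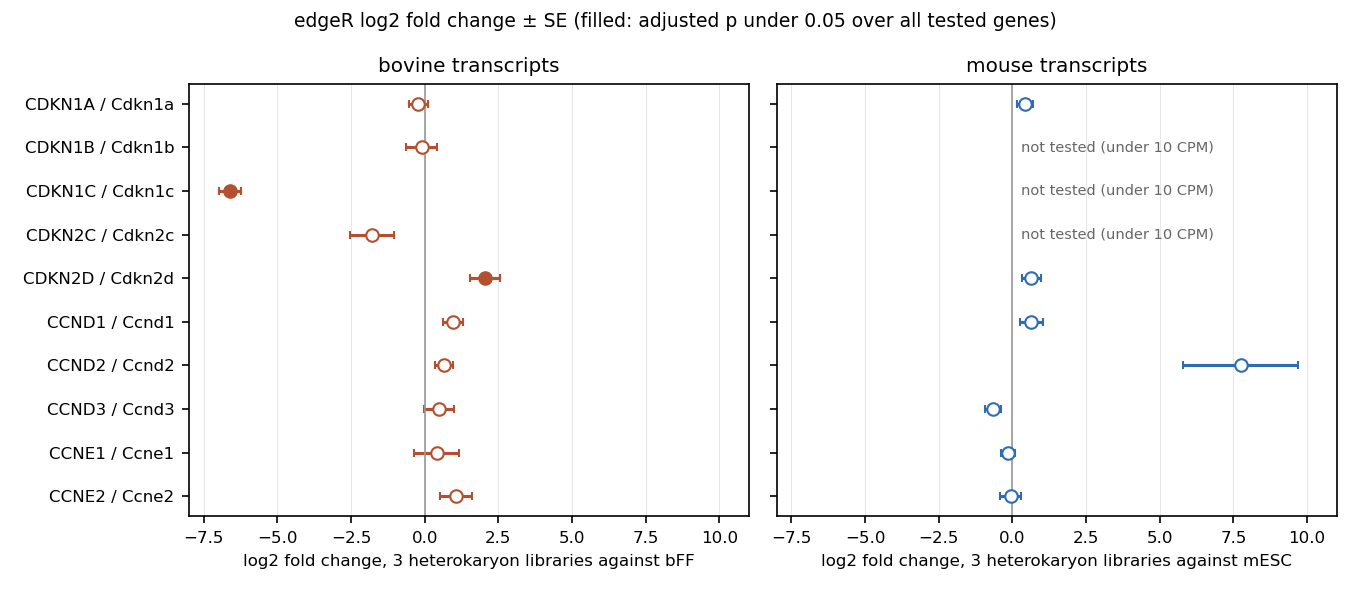
edgeR log2 fold change of the 3 heterokaryon libraries against bFF (bovine, left) or mESC (mouse, right), with bars of 1 SE and filled circles where the adjusted p over all tested genes was under 0.05. CDKN1C (-6.60) and CDKN2D (2.05) are the filled circles, and the fitted value of mouse Ccnd2 depends on the count assumed for its 0 reads in mESC.

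By size at single times, at least 4-fold on log2(CPM + 1), 1 bovine member passed at 24 h, 1 at 48 h and 3 at 72 h. These were CDKN1C, lower at every time, joined at 72 h by CDKN2C, lower, and CDKN2D, higher. With a pseudocount of 5 CPM the log2 difference of CDKN2C at 72 h was -1.81, and 2 bovine members passed. Over all bovine genes 4.03%, 2.97% and 3.36% were at least 4-fold higher at 24, 48 and 72 h, and 2.89%, 3.53% and 4.16% were at least 4-fold lower. In the mouse table Ccnd2 passed, higher, at 24 and 72 h, beside 1.68% and 0.425% of all mouse genes higher and 0.378% and 0.085% lower. At 48 h 0 mouse members passed, beside 0.576% of mouse genes higher and 0.372% lower. Between 24 and 72 h, at 10 CPM or more in either library, 1 bovine member, CDKN2D, was at least 2-fold higher and 0 were lower, beside 8.16% and 8.54% of all bovine genes. CDKN2C, under 10 CPM at both times, was at 0.399 of its 24 h level on the CPM + 1 scale. At 10 CPM or more, 0 mouse members differed at least 2-fold between these times, where 3.42% of all mouse genes were higher and 6.37% lower.

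Before fusion several members stood at very different levels in the parents. CDKN1C was at 309 RPM in bFF and Cdkn1c at 2.61 RPM in mESC, and CCND2 was at 113 RPM in bFF and at 0 in mESC. The reverse held for CCND3, at 19.7 RPM in bFF and 368 RPM in mESC, and for CCNE1, at 8.35 and 111 RPM. These values come from tables scaled separately, with other transcript models, and were not tested against each other. Levels between genes could be compared for mouse alone, where transcript lengths were at hand. Per kilobase of transcript, mESC had Ccnd3 highest at 174 RPM per kb, then Cdkn1a at 118, Ccne1 at 55.4, Cdkn2d at 21.8, Ccne2 at 11.9 and Ccnd1 at 6.75 RPM per kb. At 24 h Cdkn1a (216 RPM per kb) stood above Ccnd3 (83.8), and at 72 h Ccnd3 (156) was again above Cdkn1a (125). Ccnd2 reached 3.06 RPM per kb at 24 h, under the 14.9 of Ccnd1 and the 83.8 of Ccnd3, which remained the most abundant D cyclin transcript of the mouse nucleus in every library.

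Within the heterokaryons the bovine share of reads differed widely between the 10 genes. Bovine reads were 28.8%, 43.5% and 45.6% of all reads at 24, 48 and 72 h. CCND2 reads were bovine for 77.6% (exact binomial interval 71.4 to 83.1), 97.6% (94.6 to 99.2) and 92.5% (88.8 to 95.3), and CCND1 reads for 59.5%, 84.9% and 85.5%. CDKN1B reads were bovine for 80.0% to 87.0%, on 23 to 28 reads of both species together. In contrast, the bovine share of CCND3 was 5.29%, 6.05% and 8.04%, and that of CCNE1 was 3.61%, 5.88% and 8.97%. CDKN1A was bovine for 9.33%, 20.1% and 19.1% of its reads. The CDKN2D share rose from 34.1% (27.0 to 41.9) at 24 h to 57.4% (50.6 to 64.0) and 69.8% (64.3 to 74.9), while that over all genes also rose. Its interval included the share over all genes at 24 h and lay above it at 48 and 72 h. The interval lay above the share over all genes for 3, 4 and 4 members and below it for 3, 4 and 3 members at 24, 48 and 72 h. How many of all genes lay outside it in this way was not counted, so this spread is not shown to be particular to the members. Species differ in transcript models, and the effect of this on single shares was not tested.

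**Figure D3:**
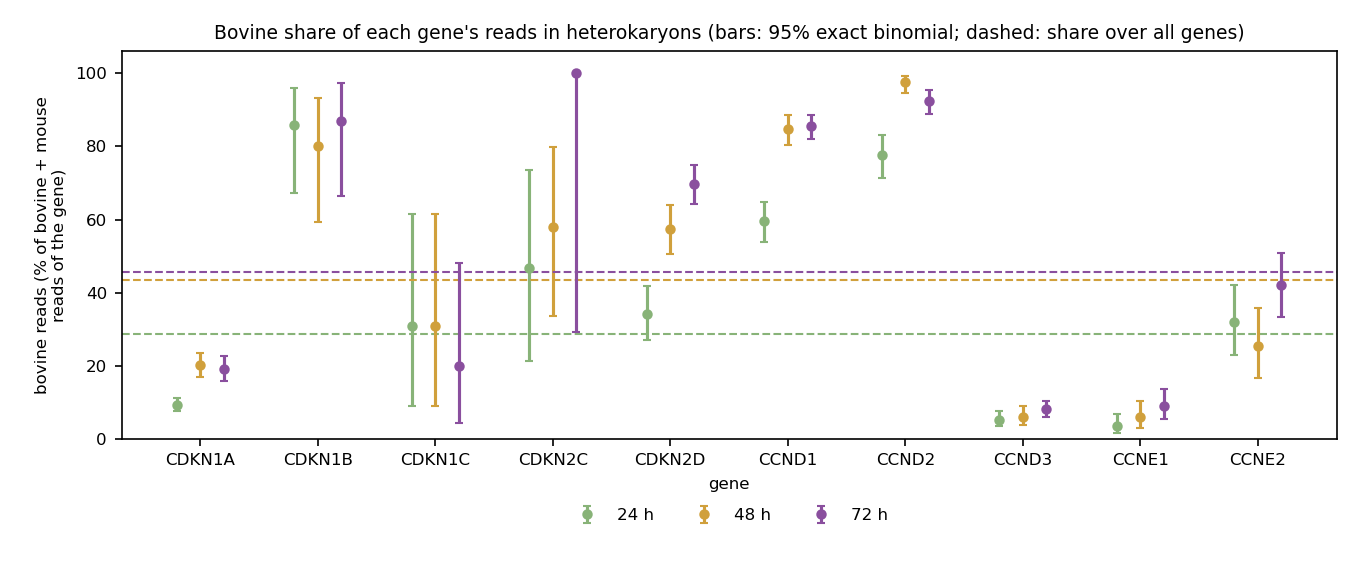
Bovine reads as a percentage of the bovine and mouse reads of each gene at 24, 48 and 72 h, with exact 95% binomial intervals, and dashed lines at the share over all genes (28.8%, 43.5% and 45.6%). CCND1, CCND2 and CDKN1B lie above the lines, CDKN1A, CCND3 and CCNE1 below them, and CDKN2D moves from 34.1% to 69.8%.

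Around these genes, 57 others were read from 6 lists: G1 kinases, other CDK inhibitors, the retinoblastoma and E2F proteins, the turnover machinery, regulators of inhibitor and cyclin genes, and genes of S phase entry. Of 34 tested in bovine transcripts 3 rose and 0 fell, and of 45 tested in mouse transcripts 0 passed in either direction, beside the 4.37% higher and 4.77% lower of all bovine genes and the 0.981% of all mouse genes called. Bovine CDK2, the partner of the E cyclins, had 22 reads in bFF and 32, 36 and 39 in the heterokaryons, with a log2 fold change of 1.85 ± 0.52 (edgeR adjusted p = 0.0451). Its adjusted p was 0.0924 by DESeq2, 0.0682 with library totals as the only scaling and 0.139 without the 48 h library. In mouse transcripts Cdk2 gave -1.01 ± 0.28 (edgeR adjusted p = 0.0982), and -1.09 to -0.81 over 10 alternatives. CDK4 and CDK6, the partners of the D cyclins, had bovine log2 fold changes of -0.60 ± 0.28 and -0.42 ± 0.60 and did not pass.

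All 4 tested bovine genes of S phase entry had a log2 fold change above 0, with a list median of 1.74, and 1 of them passed. Of the other three, CDC25A, a phosphatase that activates CDK2, had 19 bovine reads listed in mESC, at which rate 30.8% to 37.2% of its heterokaryon reads would be wrongly assigned. The gene that passed was CCNA2, the cyclin that follows cyclin E on CDK2, with 32 reads in bFF and 42, 88 and 118 in the heterokaryons (2.47 ± 0.50, edgeR adjusted p = 0.0102). Mouse Ccna2 gave -0.80 ± 0.21 (edgeR adjusted p = 0.0844), and -0.84 to -0.70 over 10 alternatives. The mouse list, of 5 tested genes, had a median of -0.42. In the list of regulators, of 7 tested bovine genes, ID1 passed. ID1 encodes a helix-loop-helix protein that lacks a DNA-binding region and is known to restrain transcription of the inhibitor gene CDKN2A. Its bovine level was 76.7 RPM in bFF and 449, 197 and 147 RPM in the heterokaryons (1.85 ± 0.51, edgeR adjusted p = 0.0399), with an adjusted p of 0.0764 under library totals and 0.0598 among genes at 50 CPM or more. Mouse Id1 was at 2.61 RPM in mESC and at 159, 15.6 and 20.7 RPM in the heterokaryons, with 4.60 ± 1.22 (edgeR adjusted p = 0.0854). The mouse log2 fold change was 2.78 without the 24 h library. Id1 passed in 4 of 10 alternatives, when any of the 3 heterokaryon libraries was left out and with no filter on low counts (edgeR adjusted p = 0.0108). It did not pass by DESeq2 (adjusted p = 0.264) or among genes at 50 CPM or more (edgeR adjusted p = 0.126). With wrongly assigned reads subtracted the edgeR adjusted p was 0.0995. Both species had their highest ID1 level at 24 h.

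In the lists of the other CDK inhibitors, of the retinoblastoma and E2F proteins and of the turnover machinery, 0 bovine and 0 mouse genes passed. CDKN3, a phosphatase that acts on CDKs, had 19 bovine reads in bFF and 8, 108 and 112 in the heterokaryons (3.06 ± 0.95, edgeR adjusted p = 0.0645). It passed in 3 of 10 alternatives, each with 1 heterokaryon library left out, where the log2 fold change was 2.66 to 3.54. It did not pass by DESeq2 (adjusted p = 0.328) or among genes at 50 CPM or more (edgeR adjusted p = 0.110). The INK4 gene CDKN2B gave -1.02 in bovine and 2.25 ± 1.06 in mouse transcripts (edgeR adjusted p = 0.168 and 0.304), the latter from 6 reads in mESC and 30, 17 and 7 in the heterokaryons. RBL1, a relative of the retinoblastoma protein, gave 1.33 and 0.41, and TFDP2, an E2F partner, -0.98 and -0.14. FBXW7, the ubiquitin ligase part that recognises cyclin E, had 28 mouse reads in mESC and 89, 35 and 28 in the heterokaryons (1.53 ± 0.53, edgeR adjusted p = 0.168). Its mouse log2 fold change was 1.13 to 1.78 over 9 alternatives, and the bovine fit gave 1.10. SKP2, which targets CDKN1B for destruction, gave 1.01 in bovine (edgeR adjusted p = 0.130) and -0.49 in mouse. Its bovine value carries 46 reads listed in mESC, at which rate 27.2% to 36.4% of its heterokaryon reads would be wrongly assigned.

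**Figure D4:**
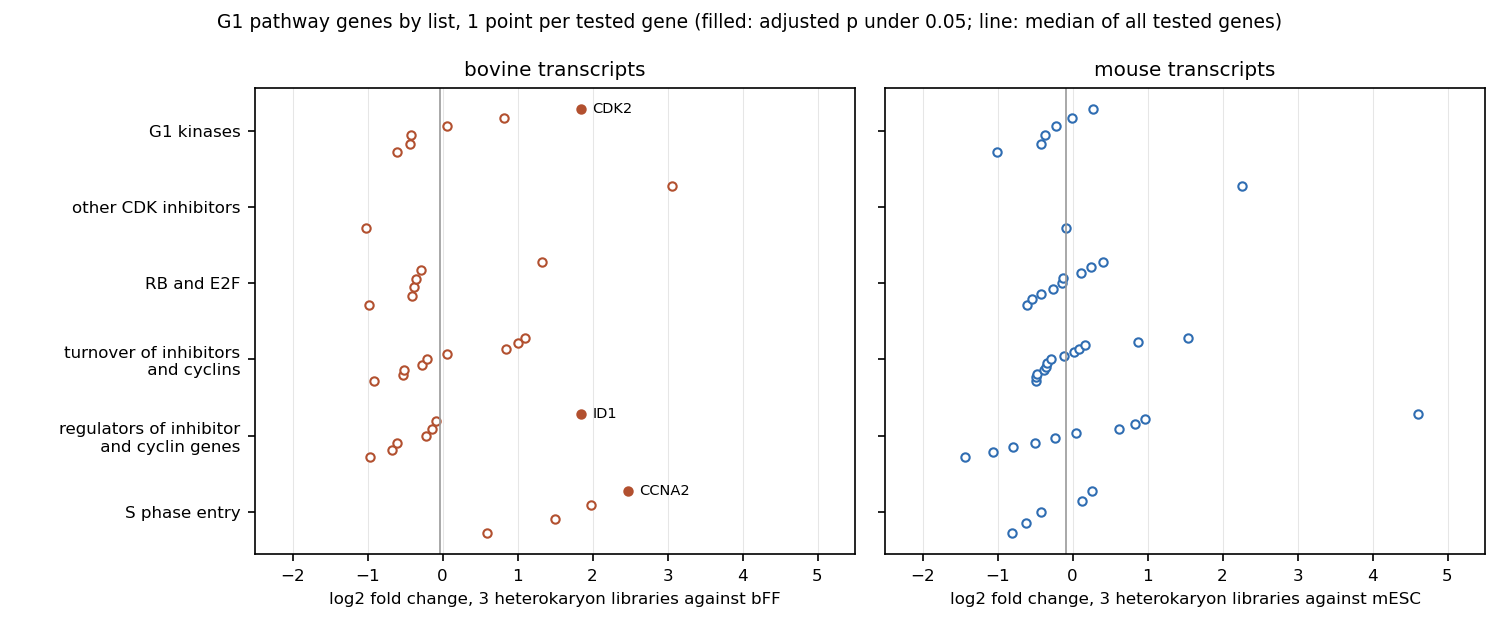
edgeR log2 fold change of each tested gene of the 6 G1 pathway lists, 1 circle per gene, in bovine (left) and mouse transcripts (right), with the median of all tested genes as a line and filled circles where the adjusted p was under 0.05. The filled circles are bovine CDK2, ID1 and CCNA2, and none is filled in mouse.

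The genes with the pattern most like bovine CDKN1C, by Euclidean distance of log2(CPM + 1) values centred on each gene's mean over 4 libraries among 3828 bovine genes, were SST (distance 0.966), CXCL10 (1.57), NUPR1 (1.77), ANGPTL1 (2.00) and FAIM2 (2.11). SST, which encodes somatostatin, had 4771 reads in bFF and 29, 58 and 51 in the heterokaryons. Among 4077 mouse genes those nearest to Ccnd2 were Krt19 (1.25), Jun (1.33), Id2 (1.33), Emp3 (1.41) and Anxa2 (1.45). Krt19, a keratin gene, had 71 reads in mESC and 769, 172 and 189 in the heterokaryons, and Jun, which encodes an AP-1 factor, had 9 and then 140, 45 and 43 reads. As in Ccnd2, the 24 h library was the highest in each of these 2 genes. This follows from choosing them by likeness to Ccnd2 over the same libraries.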

How the data were processed

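The deposited data are a bovine and a mouse table of RefSeq transcripts. Per the file headers the columns hold read counts per transcript and the same values as RPM, and the deposited RPM equalled each count divided by its column total. Per the labels' protocols, cDNA came from polyadenylated RNA of sorted cells, with SMART-Seq v4 and 14 cycles. Genome builds named by the submitters' processing notes are bosTau8 for cattle and GRCm38 and mm10 for mouse. Which aligner and counter were used, and how reads were assigned to a species, is not given in the sources used here. No gene has a count of 1, so a value of 0 can hide a single read. Gene names turned into spreadsheet dates (23 bovine, 60 mouse) were kept under their RefSeq number, and a row of totals was left out. Bovine starts are the lowest coordinate of the transcript, counted from 1, as the files give them. Mouse spans and transcript lengths come from GENCODE M21 on GRCm38.

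Counts were summed by gene name and tested with edgeR 4.0.16 in R 4.3.3 (quasi-likelihood test, TMM scaling, a minimum of 10 CPM in some library, Benjamini-Hochberg over all tested genes, threshold 0.05), the 3 heterokaryon libraries against 1 control. DESeq2 1.42.0 was an alternative, and its missing adjusted p-values stayed missing. Single times were compared with no test, taking changes of 4-fold and more in log2(CPM + 1) where either library had 10 CPM. Intervals are at 95% (exact Poisson for levels, exact binomial for shares and ratios) and cover counting error only, since PCR reads are not independent molecules. The floor is 3 reads in the control. Wrong assignment was estimated from the reads that a gene had in the control of the other species, in proportion to the reads of that species in each library. Other scalings, filters, pseudocounts and fold limits, the most read transcript alone, subtraction of wrongly assigned reads and leaving out each heterokaryon library were tried.

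The 10 genes, the 6 lists and the marker lists were chosen with earlier results of these data known. All 10 are named, with the genes of each list past the threshold or, where none passed, the 2 with the largest change in either species, each with its counterpart in the other species. CDK4 and CDK6 were named after their values were seen. The patterns nearest to a gene were sought among genes at 50 CPM or more for the member with the largest change. Python 3.11.15 was used with numpy 2.4.6, pandas 2.3.3, matplotlib 3.10.9 and scipy 1.17.1. Not every gene of the lists is reported here.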

Additional observations from a re-analysis of the deposited data

Results flagged for a closer look

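For 4 genes all 3 heterokaryon libraries lay on one side of the control in bovine transcripts and on the other side in mouse transcripts. How many of all genes share this pattern was not counted, so it is not shown to be particular to these genes. The difference between the species was not tested, and values are means over the 3 times of the log2(CPM + 1) difference from the control. CDKN1A was at -0.23 in bovine and 0.38 in mouse transcripts, a difference of -0.62. Its bovine ratios at 24 and 48 h and its mouse ratio at 72 h had counting intervals that included 1. CDKN1C was at -6.22 and 0.71, a difference of -6.92, where the mouse gene had 9 to 12 reads in a library. Each mouse Cdkn1c ratio to mESC had a counting interval that included 1. CCND3 was at 0.41 and -0.70, a difference of 1.11, although the bovine 48 h level was 1.00 times that of bFF (0.591 to 1.66). CCNE1 was at 0.32 and -0.14, a difference of 0.46, and each of its ratios to the control had a counting interval that included 1. With library totals as the only scaling, the bovine 48 h differences turned to -0.13 for CCND3 and -0.014 for CCNE1, so that both genes no longer had all bovine libraries on one side.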

How the results depend on the processing

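CDKN1C and CDKN2D kept their calls under all 10 alternatives run for each, with log2 fold changes of -7.67 to -6.37 and of 1.67 to 2.33. The bovine counts ranged from 1 to 2 higher and from 1 to 2 lower when 1 heterokaryon library was left out, with CCND1 and CDKN2C added without the 24 h library. The mouse counts, 0 in the main test, ranged from 0 to 1 higher and from 0 to 1 lower in the same way. With no filter on low counts, and with the most read transcript only, 1 mouse member was higher, Ccnd2, and without the 72 h library 1 was lower, Ccnd3. At a limit of 2-fold, 4, 3 and 5 bovine members passed at 24, 48 and 72 h, and 3 mouse members at 24 h, beside 28.2%, 26.5% and 28.1% of all bovine genes and 16% of all mouse genes in either direction. A pseudocount of 0.5 CPM gave 2 bovine members at 48 h, where CDKN2D was just under 4-fold, and 5 CPM gave 0 mouse members at 72 h. Log2 fold changes of genes that did not pass turned sign for Ccne2 (0.043 with DESeq2, 0.17 with the most read transcript only), Cdkn3 (0.00010 with DESeq2) and Skp2 (0.057 with the most read transcript only). When 1 heterokaryon library was left out, they ranged across 0 for CDKN1B (-0.35 to 0.041), FBXW7 (-0.090 to 1.58), Ccne2 (-0.19 to 0.15) and Cdkn3 (-0.46 to 0.21). The causes were not tested.

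Over all bovine genes, leaving out the 24 h library gave 830 higher and 919 lower calls and leaving out the 48 h library 228 and 223, DESeq2 gave 347 and 184, and a filter at 50 CPM 220 and 211. In mouse, DESeq2 gave 92 and 29, no filter 97 and 70, the most read transcript 65 and 55, a filter at 50 CPM 27 and 22, subtraction of wrongly assigned reads 36 and 28, and TMM replaced by DESeq2 size factors 78 and 37. Leaving out the 24, 48 or 72 h library gave 224 and 261, 53 and 19, and 174 and 226 mouse calls. With library totals as the only scaling the median over all bovine genes was -0.14, against -0.03. No paired analysis was possible because each species had a single control library, so the groups compared share fewer than 2 replicate numbers. At under about 10 reads, as for Cdkn1b, Cdkn1c and Cdkn2c, depth limits what could be detected.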

Other observations

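Among the regulators, mouse Mdm2, which encodes a ubiquitin ligase, had 431 reads in mESC and 1097, 264 and 268 in the heterokaryons, or 125, 452, 153 and 146 RPM (0.96 ± 0.48, edgeR adjusted p = 0.323). Like Cdkn1a it was highest in the 24 h library. Bovine MDM2 was at 143 RPM in bFF and at 166, 38.3 and 66.8 RPM (-0.61 ± 0.51, edgeR adjusted p = 0.510). Both were named after their values were seen.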
